A study of Mus musculus with 3 samples.

Results

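Genes of the unfolded protein and amino acid stress response were followed in RAW264.7 cells, a mouse macrophage cell line, stimulated with LPS alone or after treatment with 1 of the *Lactiplantibacillus plantarum* strains LOC1 and LOC3. The 40 genes were chosen by name as known members of this response and are 40 of the 36870 gene names on the array. No cut on their measured values was used, but they were chosen with earlier results of these data known. They comprise 5 sensors and transducers, 19 targets of the transcription factor ATF4, and 16 endoplasmic reticulum (ER) chaperones and XBP1 targets. LPS, from the outer membrane of Gram-negative bacteria, is the classical activator of TLR4. All the cells compared here were of the same line and had received LPS for 3 h. By the sample labels, the strain was given for 12 h before LPS in the LOC1 + LPS and LOC3 + LPS groups, while the methods of the study give a longer time, and no bacteria were given in the LPS group. The methods also state that the bacteria were washed away before LPS was added. Each group was 1 array, so differences between groups carry no SD and no test, and both strains were compared with the same LPS array.

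When unfolded proteins collect in the ER, the membrane sensors PERK (encoded by Eif2ak3), IRE1 (Ern1) and ATF6 each start their own branch of the response. PERK, and outside the ER the amino acid sensor GCN2, phosphorylate the translation factor eIF2α, which lowers protein synthesis in general but allows translation of ATF4, and ATF4 then switches on genes for amino acid synthesis, uptake and tRNA charging as well as stress regulators such as Ddit3 (CHOP). IRE1 splices the messenger RNA of XBP1 and, with ATF6, raises chaperones and the machinery that removes misfolded proteins. Macrophages make large amounts of secreted protein after TLR4 activation, and TLR signalling is known to engage parts of these branches.

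An ATF4 element and an ER stress element in gene promoters mark parts of these branches, but many of the genes here lack them. The letters of both were searched on both strands of the 250 bases before the start site in RefSeq promoters of GRCm38.p6, where 35 of the 40 genes were matched by symbol. TGATGNAA, the C/EBP-ATF response element bound by ATF4 with its partners, was present in 3.45% of all 32851 promoters, in 5 of 17 matched ATF4 targets and in 1 of 14 matched ER chaperones and XBP1 targets. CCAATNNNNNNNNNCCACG, the ER stress response element bound through NF-Y by ATF6 and XBP1, was present in 0.113% of all promoters, in 8 of 14 ER chaperones and XBP1 targets and in 0 of 17 ATF4 targets. No gene of the list held both. The windows below are shown because the elements differ in how often they occur in the groups, although most matched ATF4 targets lack TGATGNAA and Herpud1, of the ER side, holds it. They are printed with the element in capitals, 5′ to 3′ on the strand that carries it. Of the genes with TGATGNAA, 5 are shown, in order at chr1:191183424-191183455 (+), chr2:119351037-119351068 (-), chr6:7693213-7693244 (-), chr6:55037959-55037990 (-) and chr8:94386305-94386336 (-).
Atf3: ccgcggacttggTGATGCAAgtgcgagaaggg
Chac1: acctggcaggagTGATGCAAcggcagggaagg
Asns: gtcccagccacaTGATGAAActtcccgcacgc
Gars: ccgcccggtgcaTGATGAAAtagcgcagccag
Herpud1: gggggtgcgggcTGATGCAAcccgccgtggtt

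Of the genes with the ER stress response element, 5 are shown, at chr2:34772013-34772055 (+), chr8:84847063-84847105 (+), chr11:50325788-50325830 (-), chr14:118937815-118937857 (+) and chr19:6046520-6046562 (+). The others were Hsp90b1, Pdia6 and Creld2.
Hspa5: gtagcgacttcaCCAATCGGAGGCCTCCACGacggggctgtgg
Calr: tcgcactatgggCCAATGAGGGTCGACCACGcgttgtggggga
Canx: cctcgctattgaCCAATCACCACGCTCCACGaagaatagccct
Dnajc3: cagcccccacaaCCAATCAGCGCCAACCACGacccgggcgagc
Syvn1: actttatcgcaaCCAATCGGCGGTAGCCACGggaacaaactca

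The windows of Ddit3, Ppp1r15a and Trib3 held neither set of letters, which says only that these letters are not in that window. A match is a description of the sequence and not of binding in these cells.

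The arrays held 62976 spots each, for 56605 probes. The intensity of a spot is in arbitrary units and was compared between arrays as log2 of the intensity minus the 75th percentile of its array, which was 555 with LPS, 513 with LOC1 + LPS and 516 with LOC3 + LPS. The brightest probe of a gene stood for it, and levels of different probes are not comparable with each other. All 9 macrophage markers examined were well above background on the 3 arrays, and their summed unscaled intensity was 524830 with LPS, 419216 with LOC1 + LPS and 455289 with LOC3 + LPS, of which the brightest marker gave 244528, 185159 and 211178. Single markers differed in direction, with Csf1r at 77805, 38943 and 44637 and Adgre1 at 11368, 15572 and 13796 in the same order. Of 10 markers of T cells, B cells, epithelium, fibroblasts, endothelium and hepatocytes, 6 were well above background on all arrays, Cd79a, Krt18 and Alb were on none, and the summed intensity was 1542, 1359.9 and 1407 for LPS, LOC1 + LPS and LOC3 + LPS. The brightest of these were the T cell markers Cd4, at 895, 738 and 757, and Cd3e, at 396, 416 and 451. The part of these shifts in the results was not tested. In RNA from a bulk culture, fewer cells with a transcript and less of it per cell cannot be told apart.

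Of the 40 genes, 39 were well above background on the 3 arrays. The exception was Phgdh, the first enzyme of serine synthesis, whose single probe did not pass the background criterion anywhere, with intensities of 4.0, 8.2 and 8.2. The 40 genes had 74 probes, of which 66 were well above background on all arrays. Probes present in 10 copies per array gave the noise of a spot, and the SD of their log2 differences between arrays was 0.067 for bright probes (n = 269) and 0.30 for dim probes (n = 8). A difference of more than 2 such SDs, 0.13 for a bright probe, is called beyond spot noise below, which covers neither the culture nor the labelling of RNA. Slc7a5 had the only dim probe among the 39.

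**Figure D1:**
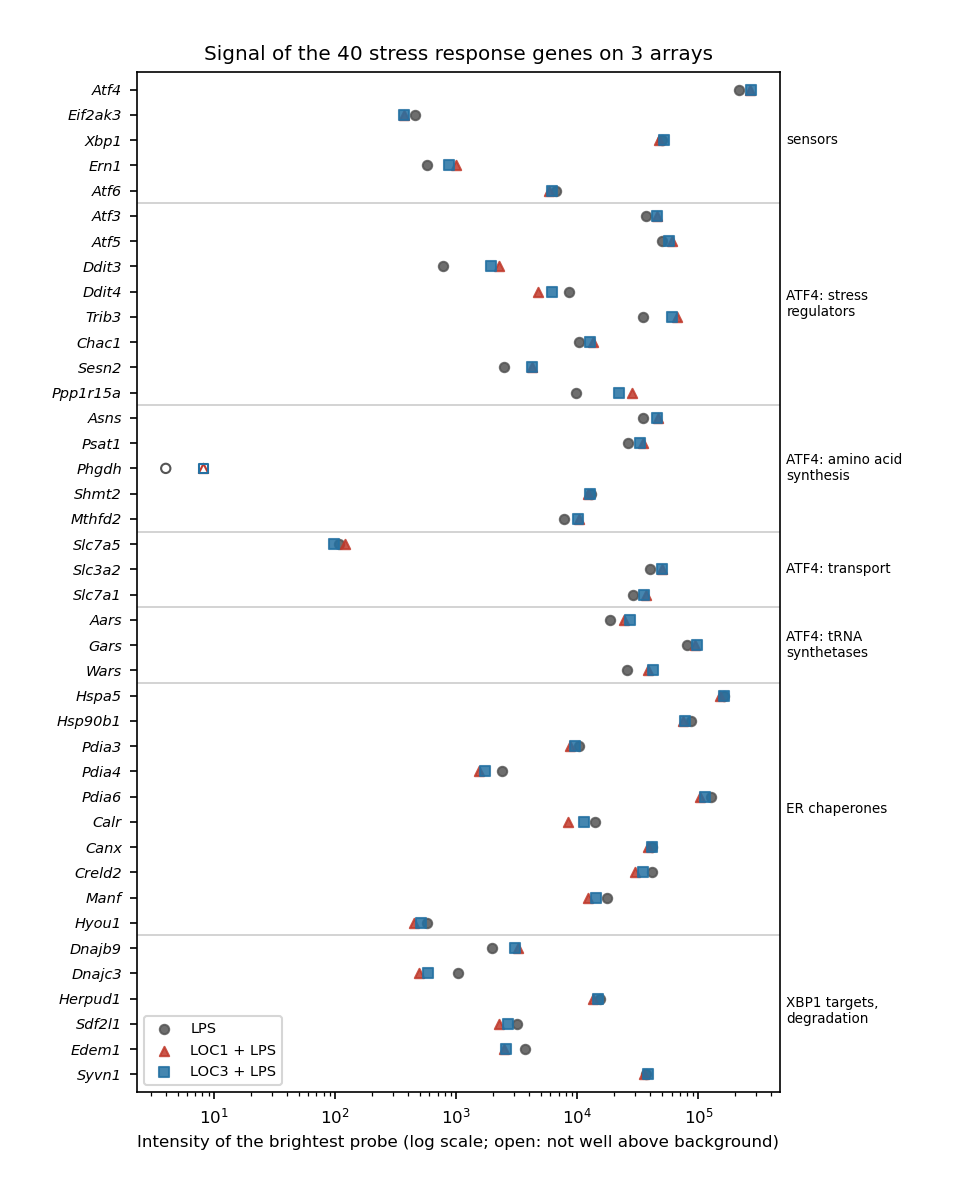
Intensity of the brightest probe of each gene (x axis, log scale, arbitrary units) on the LPS array (circles), the LOC1 + LPS array (triangles) and the LOC3 + LPS array (squares), with open symbols where the probe was not well above background. Ddit3 and Ppp1r15a show the widest gaps between LPS and both strains, and Phgdh alone has open symbols. Probes of different genes cannot be compared along the axis.

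After treatment with either strain, the ATF4 targets as a group lay above LPS alone, while the ER chaperones and XBP1 targets lay at or below it, or at or above it when arrays were scaled to their median. The median log2 difference of the 18 measured ATF4 targets was 0.50 with LOC1 and 0.43 with LOC3, beside 0.00 and 0.03 over the 20018 and 19789 genes compared. The median of the 16 ER chaperones and XBP1 targets was -0.21 with LOC1 and -0.06 with LOC3, and it turned to 0.00 and 0.12 when arrays were scaled to their median, a scaling that moved the median of all genes to 0.22 with either strain. The gap between the groups was 0.71 with LOC1 (1.64-fold) and 0.49 with LOC3 (1.41-fold), and no scaling of whole arrays by a constant can alter it. With both strains 17 of 18 ATF4 targets lay above the ER median, the exception being Ddit4, and Dnajb9 was the sole ER gene above the ATF4 median. Since both strains were set against 1 LPS array, an error on that array would enter both comparisons.

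Past the 2-fold threshold, 3 of 39 genes rose with LOC1 (Ddit3, Ppp1r15a and Trib3), beside 2.49% of all genes compared, and 2 of 39 rose with LOC3 (Ddit3 and Ppp1r15a), beside 2.97%. None of the 39 fell 2-fold with LOC1, beside 3.81% of all genes, or with LOC3, beside 3.18%. At 1.5-fold, 7 genes were higher with LOC1, beside 7.69% of all genes, and 3 were lower, beside 11.4%. With LOC3, 8 genes were higher at 1.5-fold, beside 7.81% of all genes, and 1 was lower, beside 9.49%. The 7 genes higher with LOC1 were Ddit3, Ppp1r15a, Trib3, Sesn2, Ern1, Dnajb9 and Wars, to which LOC3 added Aars. Beyond spot noise, 15 of 18 ATF4 targets were higher and 1 was lower with each strain. Of the 16 ER genes, 1 was higher and 10 were lower with LOC1, and 2 were higher and 7 lower with LOC3. Among the 11268 genes with a bright probe, 38.6% were higher and 26% lower beyond spot noise with LOC1, and 40.9% and 23.2% with LOC3.

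**Figure D2:**
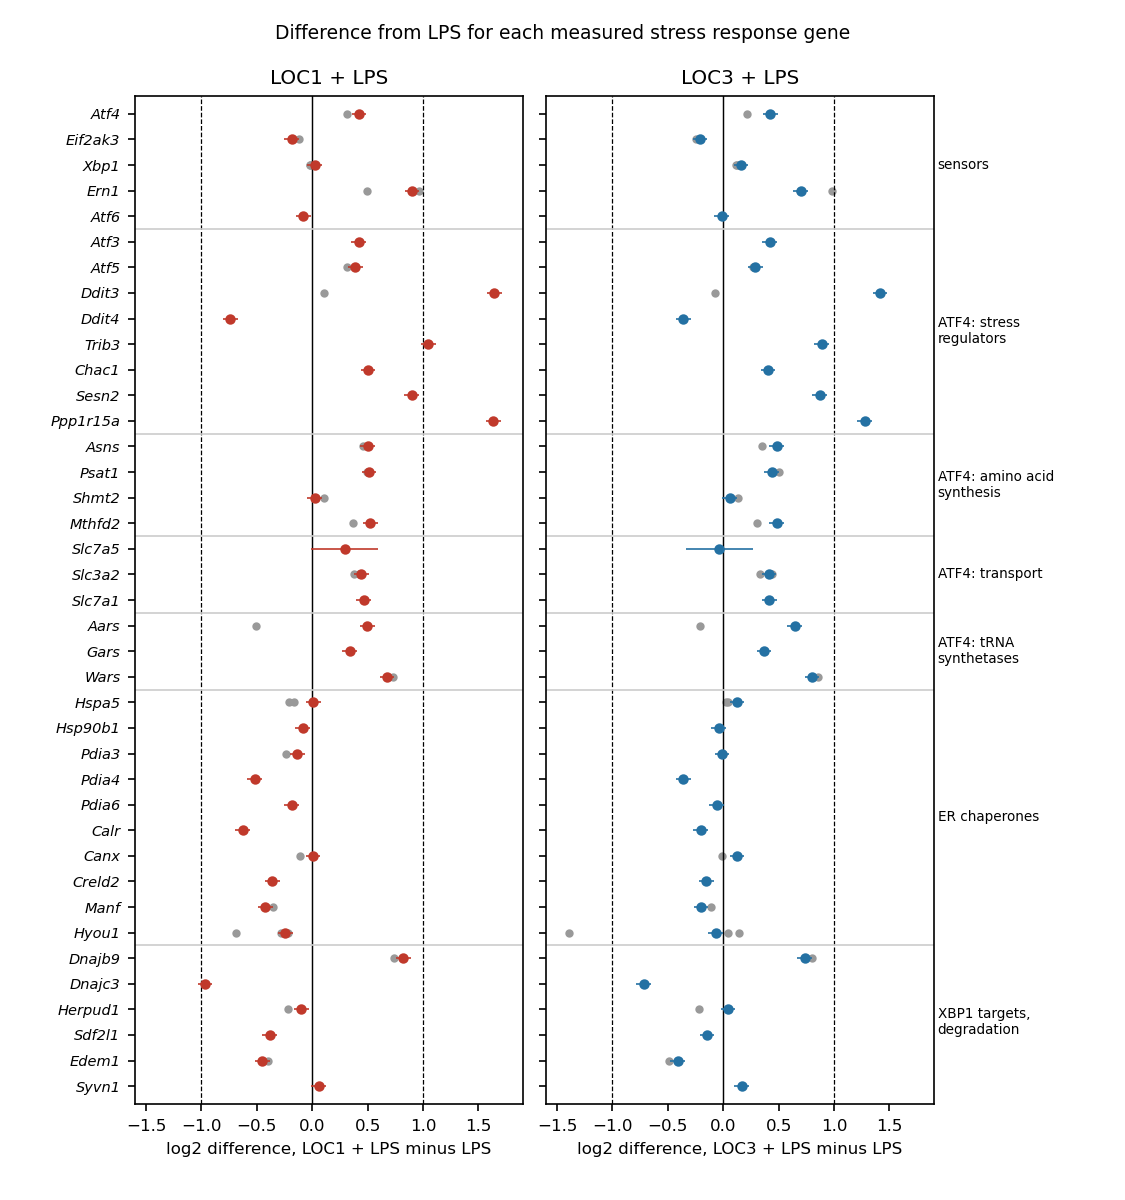
Log2 difference from LPS of each of the 39 measured genes with LOC1 + LPS (left) and LOC3 + LPS (right), with the brightest probe in colour, other detected probes in grey, 1 SD of spot noise as bars and the 2-fold threshold dashed. Most ATF4 targets sit to the right of 0 and most ER chaperones at or left of it, with LOC1 further left than LOC3, although median scaling moves the median of the ER genes to 0.00 and 0.12.

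**Figure D3:**
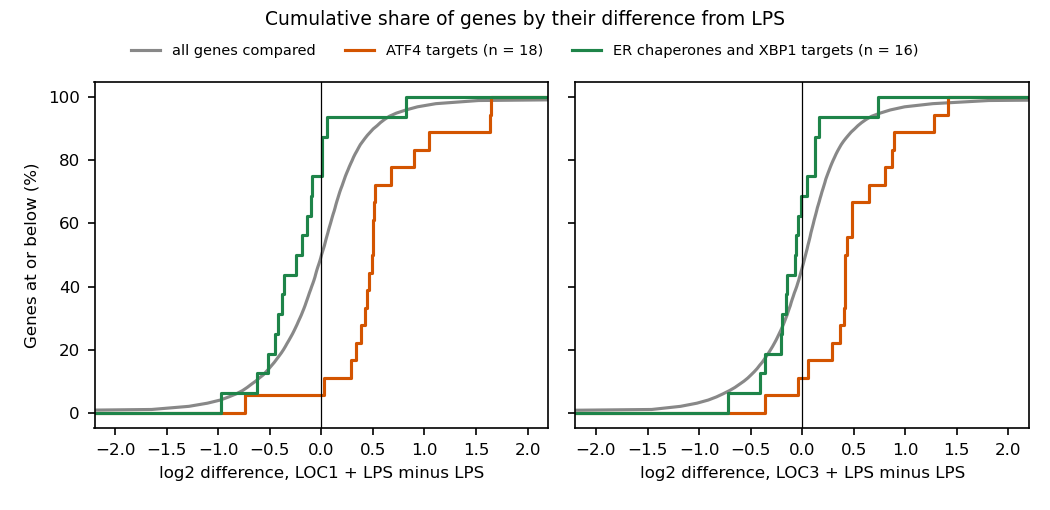
Percentage of genes (y axis) at or below each log2 difference from LPS (x axis) for all genes compared (grey), the 18 ATF4 targets (orange) and the 16 ER chaperones and XBP1 targets (green). The curve of the ATF4 targets crosses 50% near 0.50 with LOC1 and 0.43 with LOC3, and that of the ER genes crosses at -0.21 and -0.06 (0.00 and 0.12 with median scaling).

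Among the sensors and transducers, Ern1 and Atf4 were higher with both strains. Ern1, which encodes IRE1, had an intensity of 573 for LPS, 990 for LOC1 and 865 for LOC3, differences of 0.90 and 0.70. Its other detected probes gave 0.97 and 0.50 with LOC1, and 0.98 and 0.69 with LOC3, so that none of its 3 probes passed 2-fold. Atf4 itself had an intensity of 216579 for LPS, 268357 for LOC1 and 270769 for LOC3, a difference of 0.42 and 0.43. A second Atf4 probe gave 0.32 and 0.22. ATF4 is controlled largely at translation, which an array does not measure.

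The remaining sensors and Xbp1 were close to the LPS level, all under 1.5-fold. Eif2ak3 had intensities of 457, 372 and 368 (LPS, LOC1 + LPS and LOC3 + LPS, the order used from here on), with differences of -0.18 and -0.21, the first of which turned to 0.03 with median scaling. Atf6 had intensities of 6645, 5813 and 6123, with differences of -0.08 and -0.01, both within spot noise. Xbp1 had intensities of 50090, 47091 and 52076, with differences of 0.02 and 0.16, and its probes do not separate spliced from unspliced RNA as far as the files tell.

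The strongest differences were in stress regulators downstream of ATF4. Ddit3 encodes CHOP, a transcription factor linked to cell death in prolonged stress. Its probe at chr10:126732518-126732821 (mm9) had an intensity of 782 for LPS, 2259 for LOC1 and 1940 for LOC3, so that both strains were above LPS, by 1.64 (3.12-fold) and 1.42 (2.67-fold) on the log2 scale. A second Ddit3 probe, annotated to the transcript ENSMUST00000134686, had 266, 264.69 and 235, differences of 0.10 and -0.07. The probes of Ddit3 thus disagreed by 1.54 with LOC1. Among the 21 genes with over 1 probe well above background on all arrays, this was the widest disagreement in that comparison. The mean of the Ddit3 probes was 0.87 with LOC1 and 0.67 with LOC3, under 2-fold.

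Ppp1r15a encodes GADD34, the phosphatase subunit that reverses eIF2α phosphorylation. At its 1 probe, chr7:52778320-52778379 (mm9), the intensity was 9754 for LPS, 28024 for LOC1 and 21986 for LOC3. Both strains were above LPS, by 1.64 (3.11-fold) and 1.28 (2.42-fold), and it passed 2-fold under all 9 alternative ways of processing that were tried. Of these, the filters and the mean of probes cannot change the value of a gene with a single bright probe. Trib3 encodes a pseudokinase that restrains ATF4 and AKT signalling. Its intensity at chr2:152163161-152163220 (mm9) was 34873, 66642 and 60116, differences of 1.05 (2.07-fold) and 0.89 (1.85-fold), and Trib3 therefore lay just above the threshold with LOC1 and just below it with LOC3.

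Sesn2, a sestrin that restrains mTORC1 when amino acids are short, had intensities of 2462, 4242 and 4189, differences of 0.90 and 0.87. The transcription factors Atf3 (36745, 45441 and 45702) and Atf5 (49871, 60388 and 56761) differed by 0.42 and 0.39 with LOC1 and by 0.42 and 0.29 with LOC3. Chac1, which degrades glutathione, had 10315, 13522 and 12702, differences of 0.50 and 0.40. These 4 genes were above LPS with both strains by less than 2-fold and by more than spot noise.

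Ddit4 lay on the other side of LPS. It encodes REDD1, an mTORC1 inhibitor that also answers to hypoxia and glucocorticoids, and its intensity was 8595 for LPS, 4759 for LOC1 and 6226 for LOC3. The differences were -0.74 and -0.36, and they stayed below 0 under all 8 alternative ways of processing that gave a value. Of these, the filters and the mean of probes cannot change the value of its single bright probe. Ddit4 was the only ATF4 target lower than LPS by more than spot noise.

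In amino acid and one-carbon synthesis, 3 of the 4 measured genes were higher with both strains by a like amount. Asns, asparagine synthetase, had intensities of 35177, 46037 and 45680, differences of 0.50 and 0.48. Psat1, of the serine pathway, had 26188, 34547 and 32998, differences of 0.51 and 0.44, and a second probe gave 0.50 and 0.50. Mthfd2, a mitochondrial folate enzyme, had 7777, 10354 and 10123, differences of 0.53 and 0.48. The mitochondrial serine hydroxymethyltransferase Shmt2 had 13072, 12275 and 12675, differences of 0.02 and 0.06 that were within spot noise and turned below 0 with quantile normalization.

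Of the 3 amino acid transporters, Slc3a2 and Slc7a1 were higher with both strains by less than 2-fold. Slc3a2, the heavy chain shared by several transporters, had 40094, 50350 and 49704, differences of 0.44 and 0.41 that its other probes repeated at 0.38 and 0.42 with LOC1 and at 0.44 and 0.33 with LOC3. The cationic amino acid transporter Slc7a1 had 28882, 36882 and 35852, differences of 0.47 and 0.42. Slc7a5, the light chain LAT1, was dim, with 107, 121 and 96.9, and its differences of 0.29 and -0.04 were within the spot noise of dim probes.

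Wars, the tryptophan synthetase, which is also known as an interferon-induced gene, had 25925, 38285 and 42046, differences of 0.67 and 0.80, with 0.73 and 0.85 at a second probe. Aars (alanine) had 18719, 24425 and 27228, differences of 0.50 and 0.64. Gars (glycine) had 80925, 94606 and 97130, differences of 0.34 and 0.37. All 3 synthetases were above LPS with both strains, and between the strains Aars alone differed by more than spot noise, at -0.15 for LOC1 minus LOC3. A dim second probe of Aars, annotated to the transcript ENSMUST00000142770, gave -0.51 and -0.21. The mean of the detected Aars probes was 0.05 with LOC1 and 0.22 with LOC3.

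Among the 10 ER chaperones and folding enzymes, none was higher than LPS beyond spot noise with LOC1. Hspa5, which encodes BiP, the main ER chaperone and the usual readout of ER stress, had an intensity of 161688 for LPS, 150523 for LOC1 and 163971 for LOC3. Its differences were 0.01 and 0.12, its other probes gave -0.17 and -0.21 with LOC1 and 0.03 and 0.04 with LOC3, and all were under 1.5-fold. Hsp90b1 (GRP94) had 86099.6, 74988 and 77886, differences of -0.09 and -0.04, and Canx (calnexin) had 41115, 38211 and 41695, differences of 0.01 and 0.12. The signs of these 3 genes changed with the scaling.

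Calr, the lectin chaperone calreticulin, was the lowest of the chaperones with LOC1. Its intensity was 14051 for LPS, 8410 for LOC1 and 11352 for LOC3, differences of -0.63 (0.65-fold) and -0.20 (0.87-fold). The disulfide isomerase Pdia4 had 2391, 1542 and 1734, differences of -0.52 and -0.36. Both genes stayed below LPS under every alternative way of processing that gave a value.

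Manf, a secreted ER stress protein, had 17743, 12247 and 14376, differences of -0.42 and -0.20. Creld2, also a secreted ER protein, had 41474, 29858 and 34674, differences of -0.36 and -0.15, of which the LOC3 value turned to 0.03 with median scaling. Hyou1, a large ER chaperone, had 574, 448 and 509, differences of -0.24 and -0.07, of which the LOC3 value turned to 0.11 with median scaling. The probes of Hyou1 disagreed with LOC3, where 2 of them gave 0.04 and 0.15 and a dim one annotated to ENSMUST00000160112 gave -1.39. The isomerases Pdia3 and Pdia6 differed by -0.13 and -0.19 with LOC1 and by -0.01 and -0.06 with LOC3, and turned above 0 with median scaling.

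The 6 XBP1 targets and degradation genes did not all lie on the same side of LPS. Dnajb9 (ERdj4), a BiP cochaperone, had an intensity of 1966 for LPS, 3212 for LOC1 and 3047 for LOC3, differences of 0.82 (1.77-fold) and 0.74 (1.67-fold), and its second probe gave 0.74 and 0.81. Dnajc3 (p58IPK), a cochaperone that inhibits PERK and the kinase PKR, had 1039, 491 and 587, differences of -0.97 (0.51-fold) and -0.72 (0.61-fold), the lowest of all 39 genes with both strains. The BiP cochaperones thus lay at opposite ends of the ER group.

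Edem1, which hands misfolded glycoproteins to degradation, had 3694, 2500.4 and 2588, differences of -0.45 and -0.41, and its second probe gave -0.40 and -0.49. Sdf2l1 had 3161, 2242 and 2658, differences of -0.38 and -0.15, of which the LOC3 value turned to 0.04 with median scaling. Herpud1, a component of the degradation complex, had 15466, 13349 and 14828, differences of -0.10 and 0.04, and a second probe gave -0.22 with each strain. Syvn1, the ubiquitin ligase HRD1, had 36899, 35501 and 38567, differences of 0.06 and 0.17, of which the first turned to -0.05 with quantile normalization.

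The direct comparison of LOC1 + LPS with LOC3 + LPS, which does not use the LPS array, found none of the 39 genes 2-fold higher, beside 0.8% of all genes compared, and none 2-fold lower, beside 1.83%. Of the 39, 24 lay within spot noise, 4 above and 11 below it, beside 8.22% above and 10.5% below of all genes with a bright probe. Below 0, that is lower with LOC1, were 15 of the 16 ER chaperones and XBP1 targets (median -0.13), all but Dnajb9, while 45.0% of all genes compared were above 0 and their median was -0.02. Of the 18 ATF4 targets, 13 were above 0, with a median of 0.03. The widest differences were Calr at -0.42, Ddit4 at -0.38 and Ppp1r15a at 0.36, and Ddit3 was at 0.23. The count of ER genes below 0 was 15 with median scaling and with quantile normalization, and 14 with the mean of the probes.

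**Figure D4:**
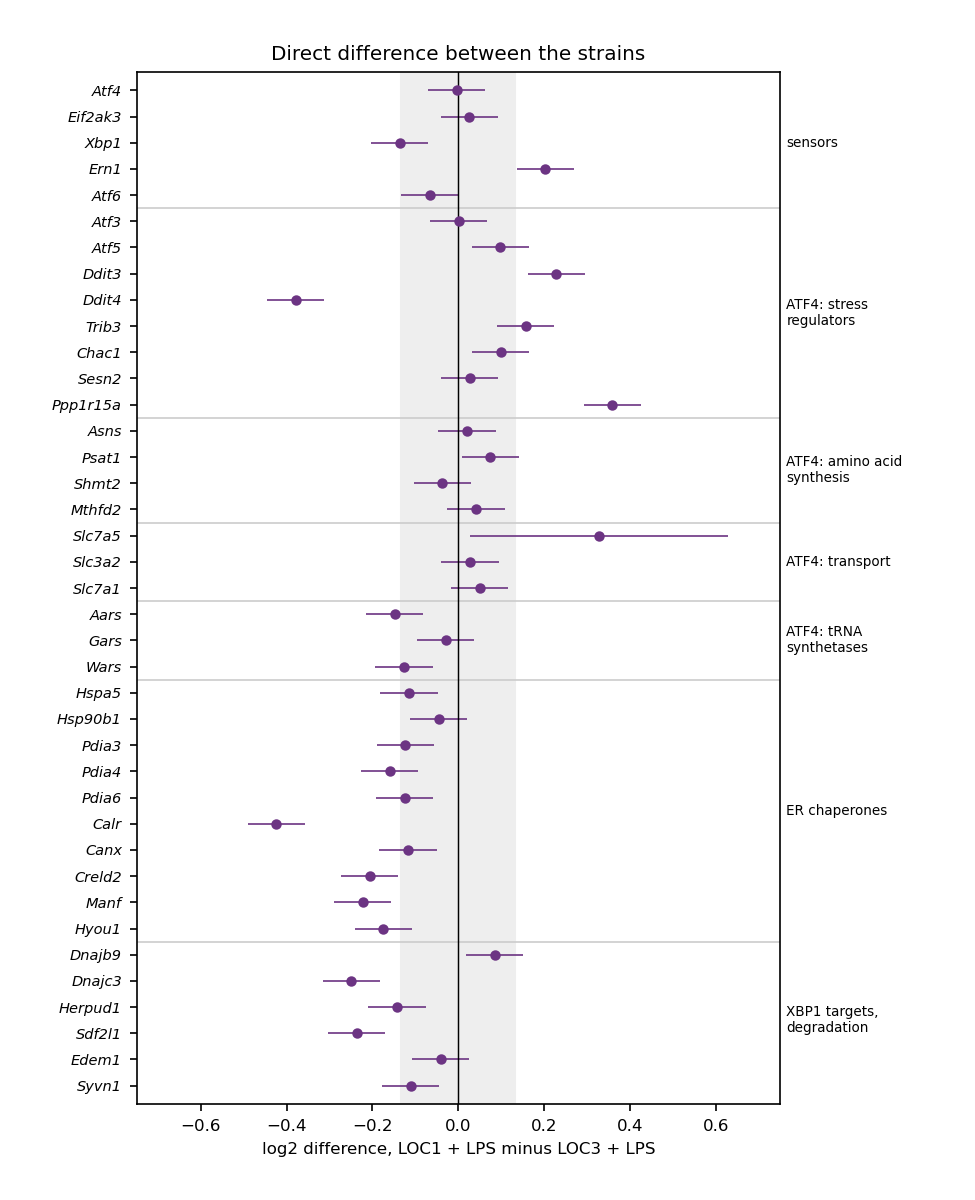
Log2 difference between LOC1 + LPS and LOC3 + LPS for the 39 measured genes, with bars of 1 SD of spot noise and the band of 2 SDs for bright probes shaded. All 10 ER chaperones lie left of 0 (with median scaling and quantile normalization too), Calr furthest at -0.42, while Ppp1r15a lies at 0.36.

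The response to LPS itself was read from the log2 ratios to unchallenged macrophages that the authors deposited, where a probe has a value only at 2-fold or more. The array of unchallenged cells is not analysed here, so the ratio has no second array to set beside it. By these ratios LPS was at least 2-fold higher than unchallenged for 12 of the 39 genes, beside 13.6% of all genes, and at least 2-fold lower for 2, beside 9.07%. Of the 12 genes, 9 were ATF4 targets, 1 was Atf4 and the other two were Herpud1 and Syvn1, and no ER chaperone was listed.

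Chac1 had the widest ratio, 5.62 on the log2 scale (49.1-fold), and at chr2:119179990-119180049 (mm9) the ratio implies an unchallenged intensity of 210.1 against 10315 with LPS. Atf3 followed at 3.10, Ppp1r15a at 2.85, Trib3 at 2.71, Ddit3 at 2.50, Mthfd2 at 2.41 and Atf4 at 2.12. The ratio was 1.99 for Herpud1 (3.99-fold), 1.52 for Slc7a1, 1.51 for Sesn2, 1.18 for Aars and 1.07 for Syvn1. The second probes of Atf4, Mthfd2 and Herpud1 were well above background on all arrays but had no deposited LPS value. The listing of these genes thus rests on their brightest probe. Lower than unchallenged were Eif2ak3 at -1.73 and Sdf2l1 at -1.01. Phgdh was listed at -1.31, but its signal was not well above background, so no fold is given.

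With the strains before LPS the same deposited ratios were further from unchallenged at the brightest probes of the stress regulators listed on all arrays. Ddit3 went from 2.50 with LPS to 4.17 with LOC1 + LPS and 3.95 with LOC3 + LPS, Ppp1r15a from 2.85 to 4.52 and 4.17, and Trib3 from 2.71 to 3.79 and 3.64. The second Ddit3 probe had deposited ratios of 1.20, 1.34 and 1.17. Chac1 was at 5.62, 6.15 and 6.06. Asns and Wars had no LPS value but were listed with both strains, Asns at 1.18 and 1.16 and Wars at 1.08 and 1.21. The LPS ratio that the intensities imply was 0.65 for Asns and 0.38 for Wars, under the 2-fold threshold. Dnajc3 likewise had no LPS value, with an implied ratio of -0.83, and was listed at -1.76 with LOC1 + LPS and -1.51 with LOC3 + LPS.

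**Figure D5:**
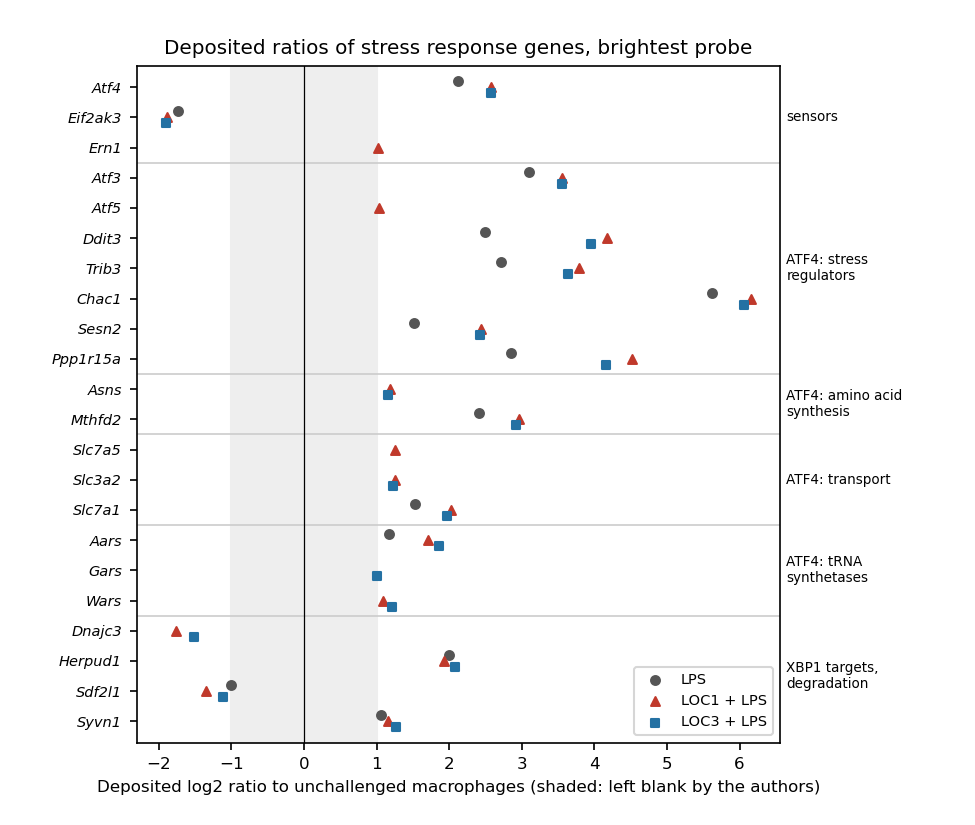
Log2 ratio to unchallenged macrophages, as deposited by the authors, of the brightest probe of each measured gene that has a value on any array (circles LPS, triangles LOC1 + LPS, squares LOC3 + LPS), with the range under 2-fold shaded since values there were left blank. Chac1 lies furthest right at 5.62 with LPS, and Ddit3 and Ppp1r15a show the widest step from LPS to the strains.

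Further genes of both branches lay outside the 40. Of 38 other genes of the ATF4 and amino acid side, 34 were compared, with a median of 0.28 with LOC1 and 0.24 with LOC3. With LOC1, 2 of them rose 2-fold (Nupr1 and Gdf15), beside 2.49% of all genes, and 1 was lower (Slc7a3), which passed the background criterion with LPS alone. With LOC3, 1 rose (Nupr1), beside 2.97% of all genes. Of 40 other ER genes, 37 were compared, with a median of -0.0006 with LOC1 and 0.07 with LOC3, and with each strain 1 rose (Wfs1) and 1 fell (Derl3), beside the shares of all genes of 2.49% and 3.81% with LOC1 and of 2.97% and 3.18% with LOC3. A count of 1 among 34 or 37 is near those shares.

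Nupr1, a stress-induced transcriptional regulator, had intensities of 9580.2, 19926 and 18267, differences of 1.17 and 1.03, and a deposited ratio of 4.002 for LPS. Wfs1, an ER membrane protein, had 333, 707 and 712, a difference of 1.20 with each strain. Derl3, a membrane protein of ER-associated degradation, had 203, 50.2 and 68.8, differences of -1.90 and -1.45, and its deposited LPS ratio was already -2.79. Gdf15, a secreted stress cytokine, had 1628, 3294 and 2705, differences of 1.13 and 0.84.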

How the data were processed

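RNA from RAW264.7 cells was hybridised to Agilent mouse arrays in 1 colour, 1 array each for LPS, LOC1 + LPS and LOC3 + LPS, grouped by the labels. The intensity values were deposited by the authors as background-subtracted, detrended Feature Extraction signals not normalized between arrays. The log2 ratios to unchallenged macrophages were deposited by the authors after GeneSpring and listed only at 2-fold or more, with column medians of 1.05 (LPS), -1.03 (LOC1) and -1.04 (LOC3). Against the intensities, differences between their columns were shifted by a constant 0.03 (LOC1) and 0.04 (LOC3), with 100% of 5507 and 5533 probes within 0.01. The centring of the unchallenged reference stays unknown. The submitters' processing notes name limma and R 3.2.5, which by the methods served the statistics.

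Control spots and outlier spots (118 to 135 per array) were left out, and no spot was saturated. A gene was compared where its brightest probe, by the mean over the arrays, passed the background criterion of Feature Extraction on 1 or both of the arrays compared, and a dim side was raised to the lowest signal well above background on its array (14.5 to 19.8). Between 47.8% and 51.9% of probes were well above background. The number of arrays limits the precision, and the t-test of the methods needs more than 1 array per group. The procedure was tested on simulated data with planted changes larger than 2-fold, so the test does not cover smaller differences. Python 3.11.15, numpy 2.4.6, pandas 2.3.3 and matplotlib 3.10.9 were used, with R 4.3.3 and limma 3.58.1 for the normexp alternative. Probe coordinates follow mm9 as in the files, and exon positions of the probes were not used here.

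All 40 genes are named, and 1 cell type marker and 1 promoter window are not reported here. Other pathway genes are named where both strains passed 2-fold the same way and they were well above background on all 3 arrays, and Gdf15 and Slc7a3 were named after their values were seen. The genes and lists were chosen with earlier results of these data known. Alternatives tried were median scaling, quantile normalization, the percentile over detected probes, normexp, the deposited ratios, filters, the mean of probes, outlier spots kept, and 1.5-fold and 3-fold thresholds.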

Additional observations from a re-analysis of the deposited data

Results flagged for a closer look

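Herpud1 was noted because its brightest probe lay on opposite sides of LPS with the strains, at -0.10 with LOC1 + LPS and 0.04 with LOC3 + LPS, a gap of -0.14 on the log2 scale. Both values were within spot noise (0.13), the LOC3 value turned below 0 under 3 alternatives and the LOC1 value above 0 with median scaling. The gap was just beyond spot noise at the brightest probe, and -0.07 with the mean of the probes. A second Herpud1 probe gave -0.22 with each strain. The difference between the strains was not tested, since each group was 1 array.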

How the results depend on the processing

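No paired analysis was possible because each group was 1 array. Of the values for single genes under the alternatives, 831 moved by less than 1 SD of spot noise and 151 by more. No change called at 2-fold turned its direction. At 1.5-fold, the genes higher and lower numbered 7 and 3 of 39 with LOC1 and 8 and 1 with LOC3. The shares of all genes were 7.69% and 11.4% with LOC1 and 7.81% and 9.49% with LOC3. Of 34 other genes of the ATF4 side, 8 were then higher with LOC1, and 5 higher and 1 lower with LOC3. Of 37 other ER genes, 2 were higher with each strain, beside the same shares of all genes. At 3-fold, 1 gene was lower with LPS than unchallenged. With median scaling, 6 genes rose with LOC1 and 4 with LOC3, while the share of all genes rose from 2.49% to 4.42% and from 2.97% to 4.36%, other ATF4 genes fell in 0 cases with LOC1 and rose in 2 with LOC3, and 2 other ER genes rose with each strain. With the percentile over detected probes, 1 gene fell with LOC1, beside 4.22% of all genes, and 0 other ATF4 genes rose with LOC3, beside 2.76%. The mean of probes left 1 gene higher past 2-fold with LOC3, and 1 (LOC1) and 0 (LOC3) other ATF4 genes. The shares of all genes higher were then 2.35% with LOC1 and 2.97% with LOC3. The 1 other ATF4 gene lower with LOC1 became 0 with normexp, quantile normalization, the deposited ratios and the filter on both arrays. The shares of all genes lower were 1.04%, 3.05%, 8.25% and 2.81% in that order. Normexp left 0 other ER genes lower with LOC3, the deposited ratios 0 higher with LOC1 and 0 with LOC3, and quantile normalization 0 other ATF4 genes higher with LOC3. The matching shares of all genes were 0.798%, 7.94%, 7.79% and 3.55% in that order. Without filter or floor, 1 other ATF4 gene was lower with LOC1 than with LOC3, beside 4.43% of all genes. The gap between ATF4 targets and ER genes was 0.63 with LOC1 and 0.60 with LOC3 by the deposited ratios, which left 9 and 3 genes.

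Medians below are less the median of all genes. With the mean of probes, tRNA synthetases were at 0.37 (LOC1) and 0.36 (LOC3) and stress regulators at 0.54 (LOC3). With quantile normalization and LOC1, sensors were at -0.12, amino acid synthesis at 0.40, transporters at 0.36 and tRNA synthetases at 0.42. With LOC3 the same groups were at -0.034, 0.29, 0.24 and 0.51, with stress regulators at 0.50 and ER chaperones at -0.19. Without filter or floor and with LOC3, sensors were at -0.016, stress regulators at 0.47, synthesis at 0.31, transporters at 0.24, tRNA synthetases at 0.47, ER chaperones at -0.24 and XBP1 targets at -0.23. Between the strains that setting gave 0.092, 0.19, 0.12, 0.15, -0.031, -0.047 and -0.031 in the same order. The median of all genes was then 0.18 with LOC3. Dim probes limit Slc7a5 and the second probes of Aars and Hyou1.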
